A study of Mus musculus with 2 samples.

Results

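Among the weaker distal sites of open chromatin in mouse liver at embryonic day 11.5, 15321 peaks called in 1 of 2 DNase-seq libraries were absent from the peak list of the other library and yet held bases listed there for raised cutting. They are called backed peaks below. They were selected on measured values: each was an autosomal peak of the shorter, stricter list of technical replicate 7, had its midpoint over 1 kb from any annotated transcript start, overlapped no peak of the stricter list of technical replicate 1 by 1 bp or more, and contained at least 1 base that the deposited cut-rate files of technical replicate 1 list at a false discovery rate (FDR) below 0.05. The 19106 peaks that met the same conditions but held no listed base are called unbacked, and both groups together are called like peaks. The stricter list of technical replicate 7 held 86036 peaks in all, of which 83870 were autosomal and 48315 of these distal. A further 13888 distal peaks overlapped the stricter list of technical replicate 1 and are called shared.

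In DNase-seq, nuclei are digested with an enzyme that cuts open chromatin most readily, and the ends it leaves are sequenced. Both libraries, technical replicate 7 and technical replicate 1 of biological replicate 1, came from 1 biosample: liver of B6NCrl mouse embryos of mixed sex, pooled over males and females, at 11.5 days. There was no second condition, so no p-value was computed, and all intervals cover counting error only. Sequencers are listed for technical replicate 7 alone, so a difference of sequencing run cannot be told apart from the difference between the libraries. The stricter lists held 86036 peaks in technical replicate 7 and 42422 in technical replicate 1. Densities fell on whole multiples of a step of 0.00401 in technical replicate 7 and 0.0101 in technical replicate 1 (within 0.02 steps for 100% of peaks with a density under 2), and the total number of cuts is not given in the sources used here. A peak of technical replicate 7 within 1 kb of a start was found for 38 of 44 erythroid and 29 of 31 hepatoblast genes. Of the other lists used below, it was found for 20 of 20 housekeeping, 18 of 20 stellate and mesenchymal and 16 of 18 neuronal genes. Counts were lower for mature hepatocyte (6 of 25), macrophage and myeloid (8 of 20) and epidermal genes (4 of 12). The share over all genes was not counted, so these counts do not mark a tissue.

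The liver at this age is a blood-forming organ: erythroid cells and their progenitors share it with hepatoblasts, the precursors of hepatocytes and bile duct cells. Distal open sites are where most enhancers and insulators lie. In erythroid cells GATA1 and TAL1 bind together at a GATA word with an E-box remnant a fixed distance away, KLF1 binds CACCC boxes, RUNX1 and PU.1 act in progenitors and myeloid cells, and in hepatoblasts HNF4A, HNF1, FOXA and C/EBP factors occupy liver enhancers. CTCF, the insulator protein, is bound in nearly every cell type and protects a long stretch of DNA from the nuclease, which leaves a footprint. In bulk tissue a weak peak can mean few cells with the site open or weak opening in many cells, and these cannot be told apart here.

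The regions below are the densest examples and not typical members: their densities ran from 0.945 to 2.74, against a median of 0.541 over all backed peaks. Each is the backed peak of highest density in which a footprint of technical replicate 7 overlapped the named motif by at least 1 bp. The footprint need not cover the whole motif. Up to 50 bases are shown to either side of the motif. For 1 blood word, 1 liver word and CTCF, picked with the values seen, the unbacked peak chosen in the same way stands beside it. In all 3 pairs shown the backed region is the denser one, but over the 10 motifs it was denser in 6 pairs and the unbacked region in 4 (GATA 1.96 in the backed and 2.18 in the unbacked region, RUNX 1.79 and 13.9, PU.1 1.31 and 3.74, FOXA 1.18 and 1.49). They were read from RefSeq GRCm38.p6, the same assembly as mm10, on the plus strand. Capitals mark the motif, on whichever strand it lies, so that CACACCC appears as GGGTGTG and GAGGAAGT as ACTTCCTC. The first set holds motifs of blood factors.

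E-box/GATA composite, backed, nearest coding start Rnf10, chr5:115267284-115267400: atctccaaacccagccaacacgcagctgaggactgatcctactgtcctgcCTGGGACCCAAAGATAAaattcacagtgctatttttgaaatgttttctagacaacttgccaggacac
E-box/GATA composite, unbacked, nearest coding start Runx1, chr16:93147605-93147721: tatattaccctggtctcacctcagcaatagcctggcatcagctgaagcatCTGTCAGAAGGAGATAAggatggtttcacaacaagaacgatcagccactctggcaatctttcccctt
KLF CACCC, backed, nearest coding start Zfp958, chr8:4656687-4656793: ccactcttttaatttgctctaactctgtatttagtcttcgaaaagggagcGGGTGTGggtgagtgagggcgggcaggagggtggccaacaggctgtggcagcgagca
RUNX, backed, nearest coding start P2ry14, chr3:59120667-59120773: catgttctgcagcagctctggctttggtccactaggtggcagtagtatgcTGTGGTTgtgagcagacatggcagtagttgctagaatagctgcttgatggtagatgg
PU.1, backed, nearest coding start Mrvi1, chr7:110930574-110930681: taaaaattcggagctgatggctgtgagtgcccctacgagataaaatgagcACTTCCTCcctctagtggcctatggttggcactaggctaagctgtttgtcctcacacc

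The composite peak near Rnf10, a ubiquitin ligase gene, is also the backed peak of highest density with a footprint overlapping a GATA word. It spanned chr5:115267204-115267423 in an intron, 4987 bp from the Rnf10 start, with a density of 1.96. In technical replicate 1, 149 of its 220 bases were listed in each file, with a lowest FDR of 0.00107. The nearest peak of that library's stricter list lay 5244 bp away. The composite peak held 1 footprint. The unbacked composite peak, 321557 bp from the start of Runx1, had a density of 1.35, 3 footprints and 0 listed bases. The RUNX region in an intron near P2ry14, a purinergic receptor gene, also holds the CTCF consensus within the bases shown. The PU.1 region near Mrvi1 also holds a GATA word, and its backing was weak, with 41 and 30 listed bases and a lowest FDR of 0.0442. The KLF region near Zfp958 had 44 listed bases in the first file and 177 in the second. The second set holds motifs of liver factors and of CTCF.

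HNF4, backed, nearest coding start Rbsn, chr6:92219540-92219648: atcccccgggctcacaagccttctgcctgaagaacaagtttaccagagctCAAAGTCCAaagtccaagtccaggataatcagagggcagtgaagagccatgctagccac
HNF4, unbacked, nearest coding start Mzt2, chr16:15838586-15838694: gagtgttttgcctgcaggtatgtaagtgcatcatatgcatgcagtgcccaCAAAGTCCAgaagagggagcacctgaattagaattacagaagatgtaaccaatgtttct
HNF1, backed, nearest coding start Foxa2, chr2:147968764-147968875: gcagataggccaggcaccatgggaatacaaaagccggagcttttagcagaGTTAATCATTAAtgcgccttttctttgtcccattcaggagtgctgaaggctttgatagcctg
FOXA, backed, nearest coding start Aaed1, chr13:64315619-64315725: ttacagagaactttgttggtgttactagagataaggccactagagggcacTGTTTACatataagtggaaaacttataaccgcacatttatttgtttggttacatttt
C/EBP, backed, nearest coding start Etv3, chr3:87499283-87499390: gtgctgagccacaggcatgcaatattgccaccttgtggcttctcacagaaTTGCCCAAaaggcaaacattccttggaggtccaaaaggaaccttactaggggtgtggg
CTCF, backed, nearest coding start Ddc, chr11:11820355-11820466: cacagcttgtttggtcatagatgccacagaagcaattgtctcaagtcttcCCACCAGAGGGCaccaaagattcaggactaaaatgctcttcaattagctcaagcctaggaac
CTCF, unbacked, nearest coding start Tmem120b, chr5:123064314-123064425: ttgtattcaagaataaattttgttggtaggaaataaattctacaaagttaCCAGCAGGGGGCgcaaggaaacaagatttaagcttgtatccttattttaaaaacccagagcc

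The HNF4 region near Rbsn had a density of 0.945, 183 of 223 bases listed in each file and 3 footprints. Its unbacked counterpart near Mzt2 had a density of 0.845 and 3 footprints. The HNF1 region, in an intron of a transcript 76655 bp from the start of Foxa2, a pioneer factor of liver and gut, had a density of 0.965 and 145 listed bases in the second file. The FOXA region near Aaed1 rested on 9 bases of the second file only, at a lowest FDR of 0.0483, and the bases shown hold the CTCF consensus and a GATA word beside the FOXA word. The C/EBP region near Etv3, an ETS repressor gene, holds a CACCC word and a TEAD word as well. The CTCF regions near Ddc (backed) and Tmem120b (unbacked) had densities of 2.74 and 2.25. The backed one lay 1110 bp from a peak of the stricter list of technical replicate 1. Of the 9 backed regions shown, 6 lay in introns and 3 between genes.

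Backing was common among like peaks and rare in nearby windows outside peaks. Of the like peaks, 44.5% were backed (95% interval 44.0 to 45.0%), against 1.65% of windows of the same width placed 10 kb to either side, 995 of 60399. Windows were kept only if over 1 kb from any start. They also had to overlap no peak of the longer list of technical replicate 7 or of the stricter list of technical replicate 1. Windows likely to hold a listed base were thus left out, so part of the contrast was built in. The listed bases cover 1.47% of autosomal sequence in each file. Because membership was defined by these positions, the share is a description. Both files, which come from different alignments of the same library, backed 14656 of the members (95.7%), the first file alone backed 295 and the second alone 370. Among shared peaks 99.4% held a listed base.

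Most members were backed over a good part of their width. The median member had 147 listed bases (10th to 90th percentile 25 to 277), or 56.4% of its width, and a lowest FDR of 0.00495 (10th to 90th percentile 4.0e-05 to 0.0337). Only 96 members had a single listed base. A lowest FDR under 0.001 was found in 4303 members, whose median density in technical replicate 7 was 0.597. A lowest FDR of 0.04 or above was found in 872, with a median of 8 listed bases and a median density of 0.469. These 872 are the members just inside the FDR limit, and values just outside it are not listed in the files.

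Other deposited lists of technical replicate 1, made from the same library, held far more backed than unbacked peaks. The longer peak list of that library held 28.1% of backed peaks and 1.02% of unbacked ones. Its hotspots, broader regions of raised cutting, overlapped 63.3% of backed and 5.78% of unbacked peaks. A peak list of an earlier processing held 83.0% of backed and 0 of 19106 unbacked peaks (exact upper limit 0.0193%), but it was derived from the same alignment as the first of the position files, so the split is partly built in. For the 4310 members in the longer list the median density was 0.645 by the measure of technical replicate 7, against 0.657 by that of technical replicate 1, on scales whose normalisation is not stated.

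The limits of the rule fell in continuous distributions. Distances to a peak of technical replicate 1 are, here and below, to its stricter list. Members within 100 bp beyond the 1 kb limit numbered 312, with a median density of 0.495, and 373 otherwise qualifying peaks within 100 bp short of it had a median of 0.465. Members whose nearest peak of technical replicate 1 was within 50 bp numbered 199 (median density 0.473), and 317 distal peaks that overlapped such a peak by at most 50 bp, and were therefore not members, had a median of 0.505. Within 1 kb of a peak of that stricter list lay 12.1% of backed and 4.94% of unbacked peaks. Within 250 bp lay 5.14% and 0.979%.

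Backed peaks were denser and richer in GC than unbacked ones, and less so than shared ones. The median density was 0.541 in backed peaks (10th to 90th percentile 0.356 to 0.993), against 0.429 in unbacked (0.316 to 0.713) and 1.04 in shared peaks. In steps of the density scale the medians were 135 for backed, 107 for unbacked and 260 for shared peaks. The distributions of backed and unbacked peaks overlapped over most of their range. Median GC content was 50.5% in backed, 47.2% in unbacked and 53.7% in shared peaks. Median widths were alike, at 266 bp in backed and 262 bp in unbacked peaks, and the median share of soft-masked repeat sequence was 7.92% in backed and 9.48% in unbacked peaks. These values come from the list that chose the members and are given without a test.

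**Figure D1:**
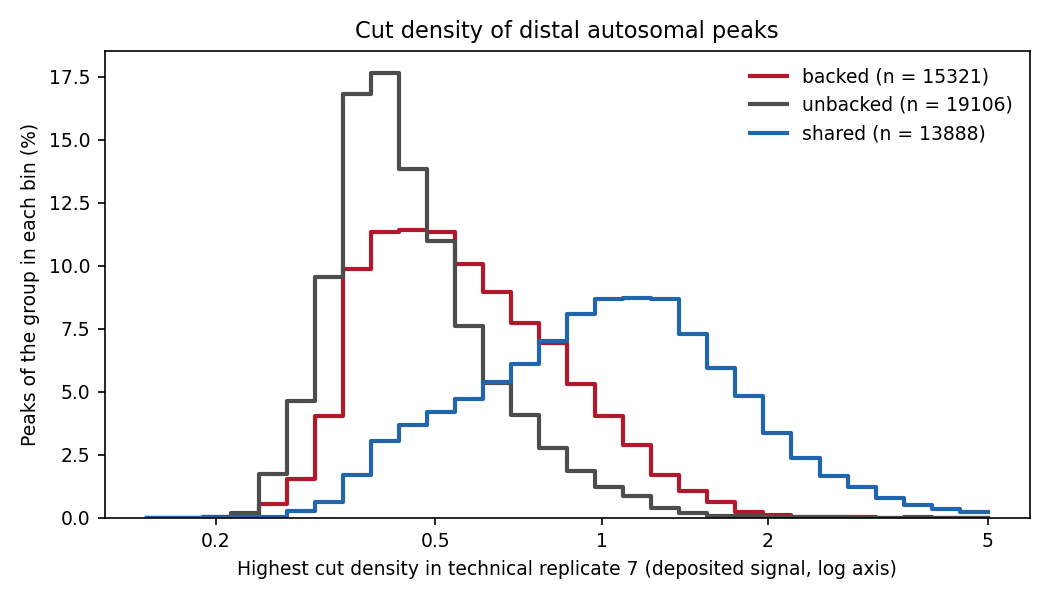
Highest cut density per peak in technical replicate 7 on a log axis, as the percentage of backed, unbacked and shared distal peaks in each bin. Lines are histograms over single peaks; backed peaks (median 0.541) lie between unbacked (0.429) and shared peaks (1.04), with wide overlap, and peaks with a density over 5 are not drawn.

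Density and GC content each went with backing when the other was held. The share of like peaks backed was 22.9% in the lowest decile of density and 72.8% in the highest. It was 22.5% in the lowest quintile of GC content and 62.1% in the highest. Within each of the 10 density deciles the share in the highest GC quintile exceeded that in the lowest, and within each of the 5 GC quintiles the share in the highest density decile exceeded that in the lowest. The extremes were 8.05% (86 of 1068) at low density and low GC and 89.5% (433 of 484) at high density and high GC. The libraries' own GC bias was not tested. By autosome the share ran from 41.5% on chromosome 1 to 46.9% on chromosome 17.

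**Figure D2:**
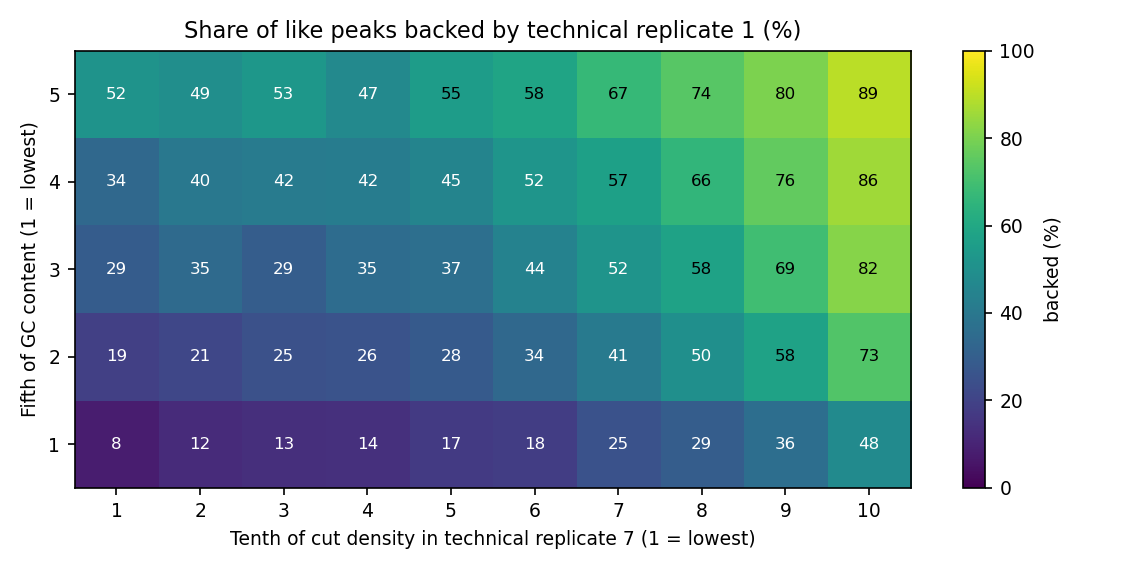
Percentage of like peaks that were backed in each combination of density decile (horizontal, lowest at left) and GC quintile (vertical, lowest at the bottom). The share runs from 8.05% at the lower left to 89.5% at the upper right, and each cell holds 326 to 1068 peaks.

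Each motif was looked for on either strand, in the bases up to 75 bp from the summit. The blood words were that of the GATA factors, spelled AGATAA, the E-box/GATA composite by name (an E-box remnant and a GATA word with 8 free bases between them), E-box CAGATG, KLF (CACACCC), NFE2 (GCTGAGTCA), RUNX (TGTGGTT), PU.1 (GAGGAAGT), ETS (CCGGAAGT), MYB (AACTGCC), GFI1 (AATCACNGC) and MEIS (TGACAG). The liver words were HNF4 (CAAAGTCCA), NR5A2 (TCAAGGTCA), HNF1 by name, FOXA (TGTTTAC), C/EBP (TTGCNCAA), ONECUT (TATTGAT), TBX3 (AGGTGTGA), TEAD (ACATTCC) and SOX (CCTTTGT). The general words were AP-1 (TGAGTCA), NFI and CTCF by name, SP1 (GGGGCGGGG), NRF1 (GCGCATGCG), YY1 (AAGATGGCG), NFY (CCAATCA), CREB (TGACGTCA) and USF (CACGTG). Every composite match is also a GATA match, and every NFE2 match an AP-1 match. A match is a word in the sequence and not a bound site.

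Set against their own flanks, backed summits were rich in most of these words. Flanks were windows of the same width centred 1000 bp away, compared within deciles of window GC. Only flanks that overlapped no peak of the longer list of technical replicate 7 were used, so the ratios are to sequence outside its peaks. GATA occurred in 15.9% of backed and 16.5% of unbacked windows, against 8.04% and 8.61% of their flanks. The ratio to flanks at matched GC was 3.10 (95% interval 2.89 to 3.32) in backed and 2.39 (2.27 to 2.52) in unbacked windows. Without matching the ratios were 1.98 and 1.91. Mean GC was 52.3% in backed and 48.8% in unbacked windows. The matched ratios thus weight GC differently and do not compare the 2 groups directly. The composite was 15.1 times (10.3 to 22.3) as frequent as in flanks in backed windows and 12 times (8.82 to 16.3) in unbacked ones. NFE2 stood at 4.10 and 5.86 in backed and unbacked windows, PU.1 at 2.08 and 2.36, RUNX at 1.27 and 1.60, and HNF4, which binds liver enhancers, at 2.34 and 1.95. FOXA had ratios of 1.69 and 1.72, and C/EBP 1.73 and 1.99. The flank interval lay above 1 for 22 of the 29 words in backed and 24 in unbacked windows. For the same words spelled backwards, which keep the base composition, it lay above 1 for 3 of 28 in each group. It lay below 1 for 4 of them in backed and 3 in unbacked windows. Backwards words without a match in the windows of a group had no ratio and count as neither. NR5A2 and TBX3 lay below their flanks in backed windows, at 0.485 and 0.504, and NR5A2 stood at 1.09 (0.831 to 1.43) and TBX3 at 0.589 in unbacked ones.

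Between backed and unbacked peaks most motif shares could not be told apart once density and GC content were held. Within 25 strata (quintiles of density by quintiles of GC) the interval of the ratio held 1 for 7 of 11 blood, 8 of 9 liver and 7 of 9 general words. GATA had a ratio of 1.03 (0.976 to 1.09), the composite 1.10 (0.919 to 1.31), HNF4 0.994 (0.705 to 1.40), FOXA 1.00 (0.875 to 1.15) and CTCF 1.04 (0.968 to 1.13). Of the blood words, 0 were higher in backed peaks and 4 were lower. GATA was close to the line: its interval lay above 1 under 4 of 8 other settings (ratios 1.06 in each) and below 1 under 1, strata of density alone (0.938). CTCF lay above 1 under 3 settings and below 1 under strata of density alone. PU.1, the word of a master regulator of myeloid cells, was in 2.10% of backed and 2.70% of unbacked windows, a ratio of 0.730 (0.629 to 0.847). RUNX was in 4.75% and 6.02%, a ratio of 0.843 (0.765 to 0.930). NFE2, bound by NF-E2 and BACH factors, was in 1.19% and 1.38%, a ratio of 0.731 (0.600 to 0.890), and its core word AP-1 had 0.860 (0.782 to 0.947). E-box CAGATG had 0.917 (0.867 to 0.969). PU.1 and RUNX were lower under all 8 other settings. The interval held 1 for NFE2 with no strata (0.863) and with strata of density alone (0.851), for AP-1 with strata of density alone (0.946) and for E-box CAGATG over whole peaks (0.985).

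Of the liver words NR5A2, bound by a nuclear receptor of early liver and pancreas, was the 1 with an interval off 1: it was in 34 of 15321 backed and 87 of 19106 unbacked windows, a ratio of 0.556 (0.363 to 0.852). Outside the longer list of technical replicate 1 the ratio was 0.654, with an interval of 0.419 to 1.02. ONECUT, at 0.799 (0.620 to 1.03), had an interval below 1 beyond 2.5 kb of a start (0.762), with no strata (0.621) and with strata of density alone (0.639). SP1, the GC box of many promoters, was the 1 word higher in backed peaks, in 1.81% against 0.858%, a ratio of 1.48 (1.21 to 1.81) within strata and 2.11 without them. Of the 28 backwards words 1 was higher and 1 lower. Those of HNF1, NFI, CTCF and NRF1 had too few matches for a ratio and could be neither. Without strata 6 words were higher and 9 lower in backed peaks. Any of GATA, RUNX, PU.1 and NFE2 was in 22.3% of backed and 24.6% of unbacked windows, and any of HNF4, HNF1, FOXA, C/EBP, ONECUT and NR5A2 in 5.91% and 7.28%. At shared peaks GATA was in 9.45% of windows and CTCF in 17.5%, so on both words backed peaks (15.9% and 8.93%) lay nearer to unbacked ones (16.5% and 7.98%).

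**Figure D3:**
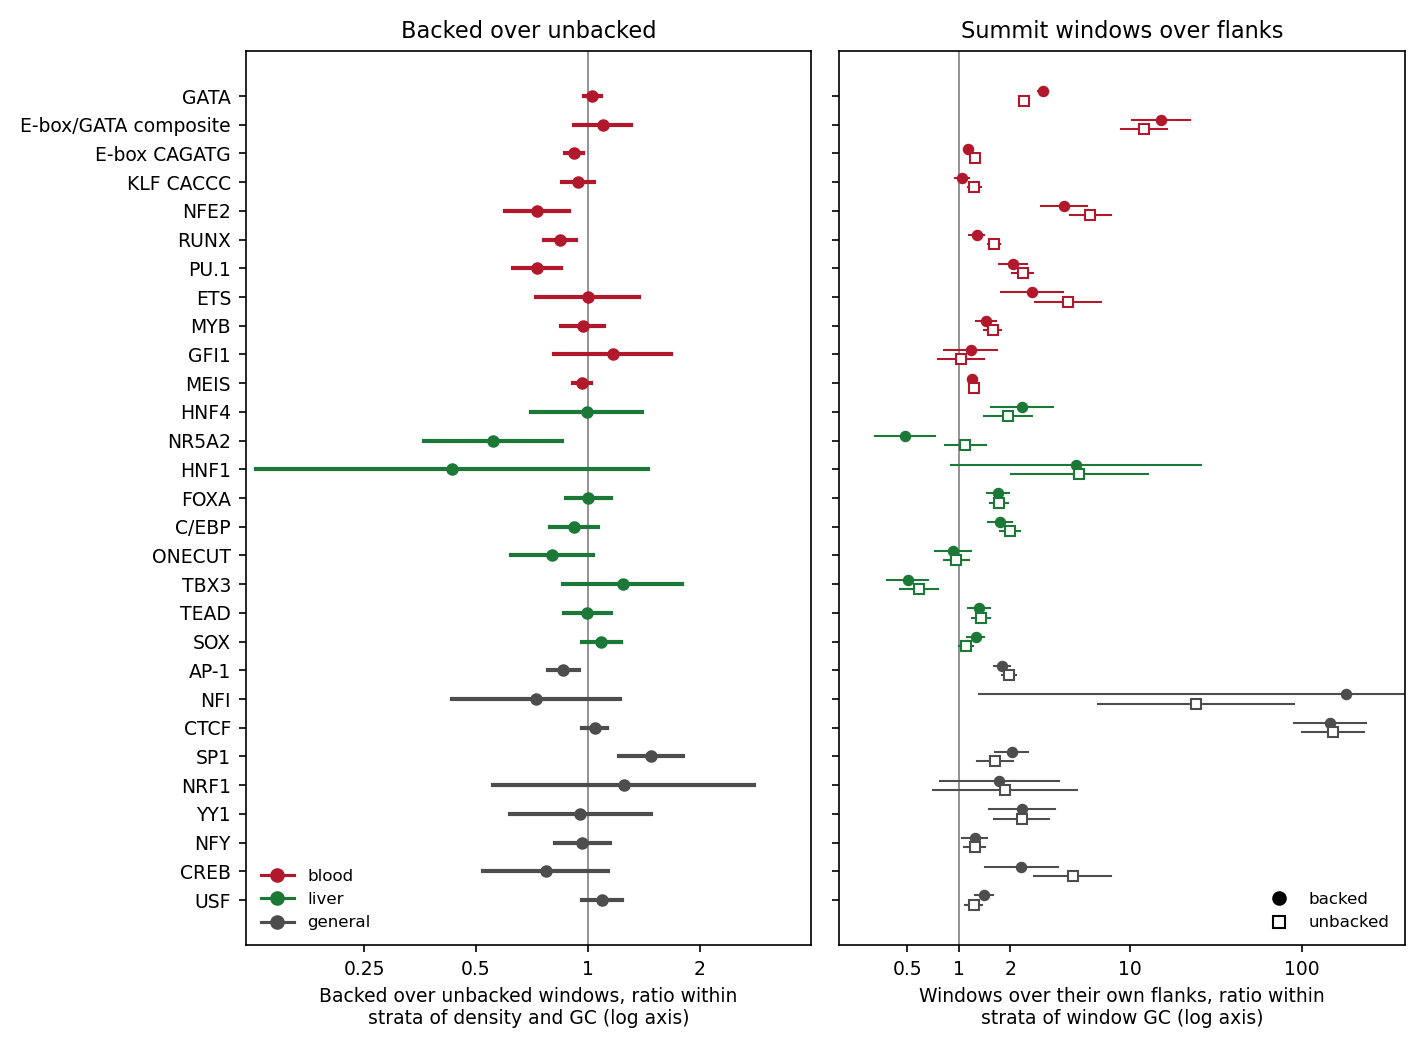
Left, ratio of the share of backed over unbacked windows with each word, within strata of density and GC. Right, ratio of windows over their own flanks within strata of window GC, with backed windows as filled circles and unbacked windows as open squares; both axes are log axes and lines are 95% intervals for counting error. On the left most intervals cross 1, with PU.1 at 0.730 and SP1 at 1.48, and on the right CTCF and the composite lie farthest above 1 apart from NFI, whose interval for backed windows runs past the axis.

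Footprints, short stretches protected from cutting inside open regions, were taken from the shorter list of technical replicate 7. They were not part of the rule, though they come from the library that gave the peaks. At least 1 footprint was found in 59.3% of backed (58.5 to 60.1%), 54.7% of unbacked (54.0 to 55.4%) and 77.2% of shared peaks. This order did not hold for the longer footprint list of that library, with 92.7% of backed, 94.5% of unbacked and 92.6% of shared peaks. A footprint needs cuts, and in the shorter list the order of backed and unbacked peaks turned round at matched density. In each of the 10 density deciles the share was lower in backed peaks, with 30.2% in backed and 36.6% in unbacked peaks of the lowest decile and 85.9% and 91.0% in those of the highest. The ratio of backed over unbacked was 1.08 without strata and 0.910 (0.894 to 0.927) within density deciles. With strata of density and GC content it was 0.971 (0.952 to 0.990), and with width held as well 0.979 (0.960 to 0.998). Without the peaks within 1 kb of a peak of technical replicate 1 it was 0.948 (0.931 to 0.966) within density deciles and 1.01 (0.992 to 1.03) within strata of density and GC. The last interval holds 1, and these settings were added with the values seen.

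**Figure D4:**
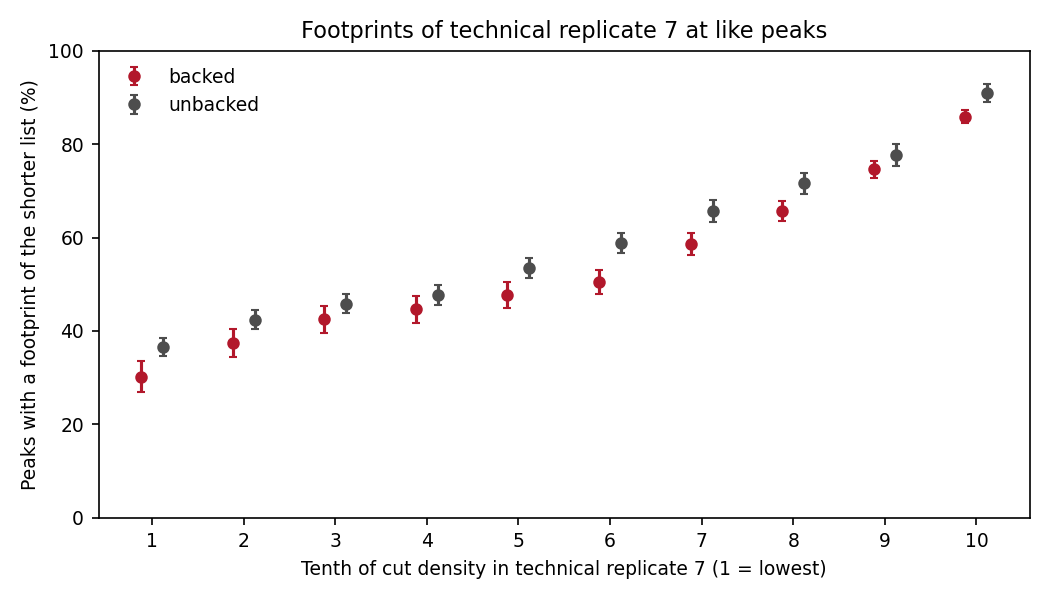
Percentage of backed and unbacked peaks with at least 1 footprint of the shorter list of technical replicate 7, by decile of cut density. Points are shares and bars exact 95% intervals for counting error; in every decile the backed point lies below the unbacked one, from 30.2% against 36.6% to 85.9% against 91.0%.

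At single motifs the shares with a footprint moved in different ways when density was held. A footprint overlapped the CTCF match in 83.6% of backed (1144 of 1368) and 71.3% of unbacked windows (1087 of 1525) with a match, a ratio of 1.17 (1.13 to 1.22), and within quintiles of density the ratio was 1.01 (0.970 to 1.04). For the composite the shares were 28.7% (86 of 300) and 21.8% (69 of 316), with 1.10 (0.828 to 1.47) within quintiles. GATA words had a footprint in 7.05% and 5.88%, and HNF4 words in 13 of 65 backed and 9 of 85 unbacked windows. Over all 29 words the interval within density quintiles lay above 1 for 0 and below 1 for 3, which were E-box CAGATG (0.726, 0.628 to 0.840), USF (0.575, 0.380 to 0.869) and YY1 (0.653, 0.470 to 0.909). Without strata these 3 words had ratios of 0.917, 0.759 and 0.881, with intervals that held 1.

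Members whose whole width was listed differed from the other members. These 1606 peaks had a footprint in 46.5% (44.0 to 48.9%), against 60.8% (60.0 to 61.6%) of the 13715 members listed in part, at the same median density of 0.541. Of them 29.1% lay within 1 kb of a peak of the stricter list of technical replicate 1, against 10.1% of those listed in part. The median distance to such a peak was 7613 bp against 17780 bp. The CTCF word was in 4.92% of the windows of the members listed throughout, against 8.93% of all members, these included. It was in 6.35% for the members with the smallest listed share and in 11.5% for those listed just short of throughout. The part of nearby stronger peaks in their listing was not tested.

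By position, backed peaks lay somewhat more often between genes. Of backed peaks 43.5% were intergenic (42.7 to 44.2%), 49.9% intronic and 6.61% exonic, against 40.7%, 54.1% and 5.21% of unbacked peaks. Within strata of density and GC the ratio of backed over unbacked was 1.13 (1.10 to 1.16) for intergenic, 0.905 (0.885 to 0.926) for intronic and 1.04 (0.948 to 1.14) for exonic peaks. The nearest start lay a median of 9602 bp away for backed, 10305 bp for unbacked and 7156 bp for shared peaks.

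The 10 genes with the most backed peaks within 50 kb of a start had 11 to 16 of them. Since they were ranked by backed peaks alone, a high count can go with as many unbacked ones. Peaks that abut were counted separately, here and in the lists below, so a count can exceed the number of separate open regions. The median protein-coding gene had 1 such peak, and 41.8% of 20780 genes had none. Abt1, a basal transcription activator, had 16 backed and 2 unbacked peaks. Kdm6b, which removes the repressive mark at histone H3 lysine 27, had 13 backed and 3 unbacked, and the backed ones ranged from 0.465 to 1.43 in density, against 0.401 to 0.501 for the unbacked ones. Pde4d, a cyclic AMP phosphodiesterase, had 13 and 12, and Plekha6 13 and 5. Gm12184, Gse1, Rnf220 and Tnnt3, the troponin T of fast muscle, had 12 backed each, with 5, 10, 6 and 5 unbacked. Rere, a nuclear corepressor, had 11 and 12, and Tiam1, an activator of the small GTPase Rac, had 11 and 6.

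Near the genes of 15 lists, the share of like peaks that were backed had an exact interval that held the 44.5% of all like peaks for 11 lists and left it out for 4. Near erythroid genes 72 of 175 like peaks were backed (41.1%, 33.8 to 48.8%), and within strata of density and GC the ratio to all other like peaks was 0.793 (0.673 to 0.935). Near hepatoblast genes 71 of 122 were backed (58.2%, 48.9 to 67.1%), with 1.14 (0.984 to 1.31) within strata. Lymphoid genes stood at 19 of 25 (76.0%), muscle genes at 27 of 43 (62.8%) and endothelial genes at 50 of 90 (55.6%), with ratios within strata of 1.35 (1.11 to 1.65), 1.28 (1.05 to 1.56) and 1.16 (0.992 to 1.36). With peaks within 20 kb instead, the interval left out the share of all like peaks for lymphoid (10 of 11) and hepatoblast genes (55 of 85) only. At 20 kb the ratio within strata was 0.831 (0.686 to 1.01) for erythroid genes, which holds 1, and 1.26 (1.08 to 1.46) for hepatoblast genes, which does not. Plasma protein genes stood at 46.3%, mature hepatocyte genes at 45.2% and housekeeping genes at 40.3%. Peaks near 1 gene share their neighbourhood, so these intervals are too narrow as statements about gene lists.

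**Figure D5:**
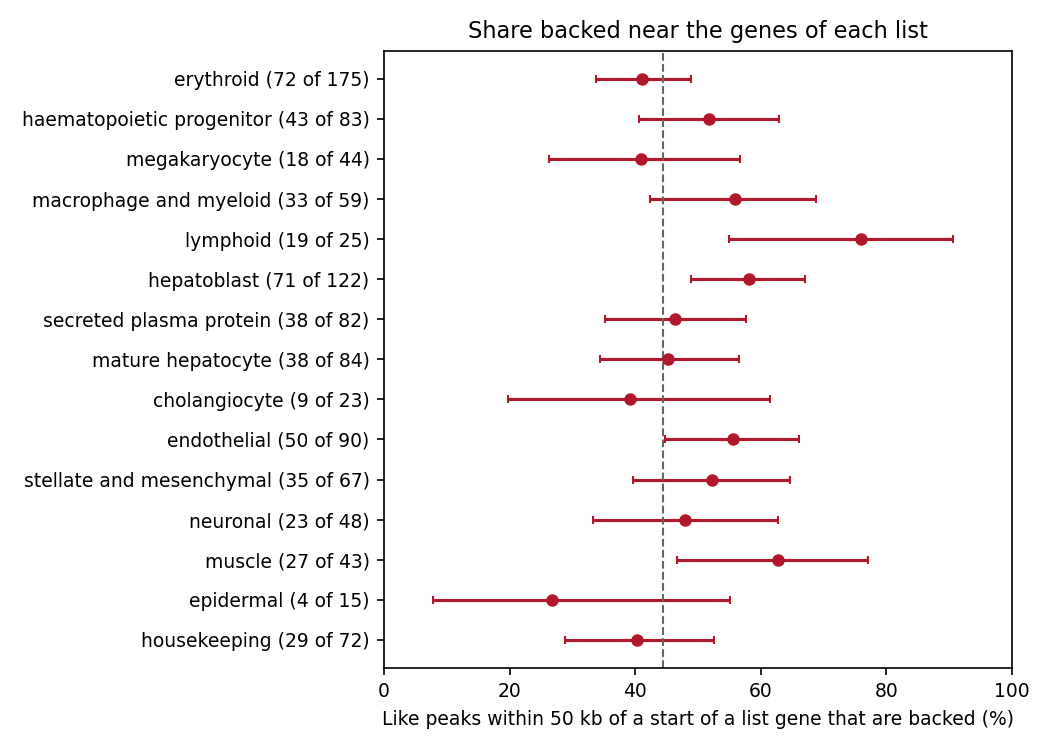
Percentage of like peaks within 50 kb of a start of a list gene that were backed, with exact 95% intervals for counting error and the numbers of backed and like peaks beside each list. The dashed line marks the 44.5% of all like peaks; the intervals of the lymphoid, hepatoblast, endothelial and muscle lists lie to its right.

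The list members named next were picked for their backed counts and do not stand for their lists. Over all protein-coding genes the mean was 1.22 backed and 1.48 unbacked peaks, so unbacked peaks were the more numerous near genes in general. The share of all genes with more backed than unbacked peaks was not counted. On the erythroid list 8 of 42 autosomal genes had more backed than unbacked peaks within 50 kb and 29 had fewer, among them Car2, a carbonic anhydrase of red cells, with 0 and 5. Neighbouring globin genes on this list count some of the same peaks. On the hepatoblast list 14 of 31 had more and 13 fewer, and on the mature hepatocyte list 7 of 24 had more and 12 fewer, among them Asl, an enzyme of the urea cycle, with 0 and 7. The members with the most backed peaks on the erythroid list were Sptb, the beta spectrin of the red cell skeleton, with 7 backed and 0 unbacked peaks, and Gfi1b, a repressor needed for red cells and platelets, with 6 and 4. For progenitors they were the ETS factor genes Fli1 (7 and 5) and Erg (4 and 2), and for hepatoblasts Cited2, a partner of the coactivator CBP, with 10 and 2, and Foxa1, the pioneer factor, with 7 and 1. Pecam1 and Flt1, endothelial surface proteins, had 10 backed and 7 unbacked and 6 and 1. Of the 19 autosomal genes on the endothelial list, 9 had more backed than unbacked peaks and 6 had fewer. Ebf1, a factor that sets B cell identity, had 5 and 0, and Fcgr1, a macrophage Fc receptor, 8 and 4. Pck1, the enzyme that commits to gluconeogenesis, had 6 and 0, Apoe 5 and 4, and Itih2, a plasma protein, 5 and 1. Of the 32 autosomal plasma protein genes, 6 had more backed than unbacked peaks and 15 had fewer, among them Fetub with 0 and 3. Of other tissues, Rbfox3, a neuronal splicing factor, had 6 and 9, and Ryr1, the calcium channel of muscle, 6 and 2.

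At Cited2 the 10 backed peaks had densities of 0.312 to 1.31 (median 0.399), lower in the median than the 2 unbacked ones at 0.457 and 0.877. Their listed bases ran from 7 to 203 and their lowest FDRs from 9.6e-08 to 0.0371, and 2 were listed in 1 file only. At Foxa1 the 7 backed peaks had densities of 0.336 to 0.465, GC contents of 44.5 to 75.7% and 118 to 362 listed bases, beside a single unbacked peak of density 0.344 and GC content 36.7%. The groups overlapped in density at both genes, and 4 of 10 backed peaks at Cited2 and 3 of 7 at Foxa1 had a footprint. Some of the backed peaks abut, chr10:17727591-17727697 and chr10:17727698-17727874 at Cited2 and chr12:57534650-57534806 and chr12:57534807-57535073 at Foxa1.

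At Sptb the 7 backed peaks had densities of 0.457 to 1.65, with 53 to 333 listed bases. The densest, at chr12:76673816-76674148 in an intron, was listed over its whole 333 bases at an FDR of 7.9e-22 and held 3 footprints. At Fli1 the 7 backed peaks (0.348 to 0.657) and the 5 unbacked ones (0.361 to 0.513) overlapped in density. The backed peak nearest to the Fli1 start, 1292 bp away, had the lowest FDR at that gene, 5.5e-58.

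The globin gene Hbb-bs, which codes for an adult beta globin, was looked at for its known role, with its values already seen. Its neighbourhood held 5 backed peaks of density 0.781 to 1.5 and 6 unbacked ones of 0.381 to 0.845. The GC content of the backed peaks was 38.1 to 48.7% and that of the unbacked ones 31.6 to 41.6%. Both measures were higher in the backed peaks and overlapped at the edge. A footprint was present in 3 of the 5 backed and 5 of the 6 unbacked peaks.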

How the data were processed

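2 DNase-seq libraries of embryonic mouse liver, technical replicates of 1 biological sample, were used. The authors called peaks in each library separately on mm10, per the labels, and deposited for each peak a signal, the highest cut density, whose scaling is not stated. The deposited cut-rate files of technical replicate 1 list runs of bases with an FDR, a value of the p-value kind, below 0.05 and hold nothing above it. The deposited hotspots carry a −log10 FDR and, in an earlier processing, a score. No source used here names the peak or footprint caller. Footprint files hold intervals only.

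The members and the lists of motifs and genes were chosen with earlier results of these data known. Starts came from all transcripts of GENCODE vM21. Overlap meant 1 bp. Shares have exact Clopper-Pearson 95% intervals, and ratios a 95% log interval, pooled over strata by the Mantel-Haenszel method (deciles of density for footprints, 25 cells of density and GC for motifs, places and lists). On 100 simulated draws over the 34427 like peaks for each of 3 known ratios, the interval held the true ratio in 92 to 96 draws, and with no true difference 8 of the 100 intervals left out 1. The draws took peaks as independent, with a base frequency near that of the FOXA and SOX words. Much rarer or commoner words, footprints, places and gene lists were not simulated. Flanking windows, windows 10 kb away and some strata were added after seeing the data. Regions shown in full are, for each of 10 motifs, the densest backed peak with a footprint overlapping that motif. GATA and the composite gave the same peak. Genes named are the 10 with most backed peaks within 50 kb, 1 per 200 kb, and members among the 2 with most per list. Of 320 list entries, 1 gene was not found. The computation used Python 3.11.15, numpy 2.4.6, pandas 2.3.3, scipy 1.17.1, pysam 0.24.0 and matplotlib 3.10.9. The number of cuts behind each library is not given, so depth enters only through density.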

Additional observations from a re-analysis of the deposited data

How the results depend on the processing

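The share of like peaks backed, 44.5%, was 41.5% with 5 or more listed runs required, 43.4% with the first position file alone, 43.6% with the second, 43.6% beyond 2.5 kb of a start, 36.8% without peaks of the longer list of technical replicate 1, 36.9% over the longer list of technical replicate 7, 45.1% with starts of the basic annotation and 42.6% without peaks within 1 kb of a peak of technical replicate 1. The ratio of median densities, 1.26, was 1.28 beyond 2.5 kb, 1.19 without the longer list, 1.28 with 5 or more runs and 1.28 without peaks near those of technical replicate 1. The footprint ratio of 0.910 reversed to 1.08 with no strata, and its difference from 1 was lost (1.01, 0.992 to 1.03) with strata of density and GC and no peak within 1 kb of a peak of technical replicate 1. It stayed below 1 under the other 8 settings, from 0.908 to 0.979. The number of motifs higher in backed peaks, 1 within strata, was 2 beyond 2.5 kb, 2 without the longer list, 6 over whole peaks, 6 with no strata, 4 with strata of density alone, 2 with 10 by 10 strata and 3 without peaks near those of technical replicate 1; the number lower, 6 within strata, ran from 5 to 9. SP1 was higher under all 8 settings and RUNX and PU.1 lower under all 8. With no strata KLF CACCC turned to 1.10 and FOXA to 0.857, and with strata of density alone GATA turned to 0.938, KLF CACCC to 1.13 and CTCF to 0.784. GATA gained an interval above 1 outside the longer list, over whole peaks, with 10 by 10 strata and without nearby peaks (1.06 each), and CTCF beyond 2.5 kb (1.13), with no strata (1.12) and without nearby peaks (1.11). Beyond 2.5 kb of a start 48.3% of backed peaks were intronic, 46.7% intergenic and 4.97% exonic, and without the longer list 6.01% were exonic. Of the 15 gene lists, 4 had an interval that left out the share of all like peaks, and 2 with a window of 20 kb. Nearby peaks are those within 1 kb of a peak of the stricter list of technical replicate 1. The settings with basic starts, without nearby peaks, with GC in the footprint strata and with 10 by 10 motif strata were chosen after seeing the data. The cause of each change was not tested. No paired analysis was possible because the libraries are 2 technical replicates of 1 sample with no second group, and for the same reason leaving out a library was not run. The rarest words rest on few windows: HNF1 was in 6 backed and 15 unbacked ones.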

Other observations

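The X chromosome stood outside the rule. Of its 848 peaks that met the other conditions, 303 held a listed base, 35.7% (32.5 to 39.1%), below the 41.5% of the lowest autosome. Their median density was 0.340 and their median GC content 45.4%, both below the medians of like peaks on the autosomes.

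A few like peaks had extreme densities. The highest was 4760 among backed peaks, where the next was 7.69, and 260 among unbacked ones. Of the 7 like peaks with a density over 5, 2 were backed, and a median of 87.7% of their bases was soft-masked as repeats. Of the 58 with a density over 2, 30 were backed (51.7%, 38.2 to 65.0%), below the 72.8% of the highest decile.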
